A study of Homo sapiens with 40 samples.

Results

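The comparison of BT474 cells treated with epidermal growth factor (EGF) for 24 h against vehicle control at the same time was examined by ATAC-seq, which reads open chromatin from the sites where a transposase can cut and tag DNA. It rests on 4 of the 40 libraries of the series, chosen by their titles: 2 EGF libraries (EGF-BT474) and 2 control libraries. BT474 is an established breast ductal carcinoma line that overexpresses HER2 and responds to the antibody trastuzumab. All cells of both groups were serum starved before EGF, or water as the vehicle, was given in fresh starvation medium. The series also holds BT474 cells at 0 h (baseline), cells given EGF, heregulin (HRG, which binds HER3 and HER4) or water for 1, 12 and 24 h, and the same set for BT474R, a single trastuzumab-resistant clone. The labels do not say whether the 2 libraries of a group came from separate cultures, so the p-values below measure the spread between these libraries, which may be technical. Peaks of the 4 lists were merged where they overlapped by at least 1 bp on chromosomes 1 to 22 and X, which gave 60228 regions, and a library was called open at a region where it had a peak. A region open in 2 of 2 EGF libraries and 0 of 2 control libraries is called gained, and one open in 0 of 2 EGF and 2 of 2 control libraries lost.

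EGF binds EGFR, which pairs with HER2 and other ERBB receptors and passes the signal through Ras and the MAP kinases and through PI3K and AKT. The MAP kinases act on immediate early genes, among them those of the FOS and JUN families, whose proteins pair to form AP-1, a factor known for binding enhancers and opening chromatin there. Feedback inhibitors such as the dual-specificity phosphatases (DUSP), the Sprouty (SPRY) proteins and ERRFI1 are made in response and dampen the same pathway. In luminal breast cells such as BT474 the enhancers of the unstimulated state are known for motifs of GATA3, FOXA1 and related factors.

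The sequences below show what the strongest gained and lost regions look like. Of the 6 gained regions with the highest rank in both EGF libraries 3 are printed, followed by the 2 strongest lost regions. Each is 201 bases of the GRCh38 plus strand centred on the summit of the strongest peak and named for the nearest protein-coding gene start. Capitals mark matches to TGANTCA, the AP-1 motif, which reads the same on both strands.
MAMLD1, chrX:150201019-150201219: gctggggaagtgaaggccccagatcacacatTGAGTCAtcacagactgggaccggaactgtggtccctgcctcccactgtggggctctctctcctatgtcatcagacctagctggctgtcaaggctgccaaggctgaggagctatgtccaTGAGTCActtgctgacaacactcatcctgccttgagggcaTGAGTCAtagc
PTPN1, chr20:50440859-50441059: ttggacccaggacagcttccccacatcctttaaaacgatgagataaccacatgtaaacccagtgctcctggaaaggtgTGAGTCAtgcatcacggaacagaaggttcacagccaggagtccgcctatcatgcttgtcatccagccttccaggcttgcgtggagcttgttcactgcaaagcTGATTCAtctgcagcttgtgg
NSG2, chr5:174082397-174082597: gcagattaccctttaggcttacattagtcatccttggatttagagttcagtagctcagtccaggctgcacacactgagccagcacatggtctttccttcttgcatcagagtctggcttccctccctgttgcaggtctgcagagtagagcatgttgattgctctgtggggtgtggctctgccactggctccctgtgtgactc
MAN1A1, chr6:120142027-120142227: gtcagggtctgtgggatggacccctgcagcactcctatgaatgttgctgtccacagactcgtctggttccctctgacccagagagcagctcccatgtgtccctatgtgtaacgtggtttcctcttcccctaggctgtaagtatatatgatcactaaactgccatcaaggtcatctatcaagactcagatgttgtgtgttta
NR4A1, chr12:52060280-52060480: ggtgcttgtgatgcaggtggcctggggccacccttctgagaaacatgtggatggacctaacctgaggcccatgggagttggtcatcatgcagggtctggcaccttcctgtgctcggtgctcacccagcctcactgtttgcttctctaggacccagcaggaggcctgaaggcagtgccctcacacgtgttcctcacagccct
Capitals appear 3 times near MAMLD1 and 2 times near PTPN1. The windows near NSG2, MAN1A1 and NR4A1 hold no match.

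A total of 44958 of the 60228 regions (74.6%) were open in all 4 libraries. EGF-BT474 gained 3015 regions, which is 5.01% of all regions, and lost 1026, which is 1.7%. Where exactly 2 of the 4 libraries had a peak, in 5476 regions, 55.1% were open in both EGF libraries, 18.7% in both control libraries and 26.2% in 1 library of each group. With 2 libraries against 2 no exact test of a single region can go below 0.333, so gained and lost are descriptions of presence. The excess of gained over lost regions ended when each list was limited to its 50579 strongest peaks, the number in the shortest list: 1760 regions were then gained and 1958 lost.

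**Figure D1:**
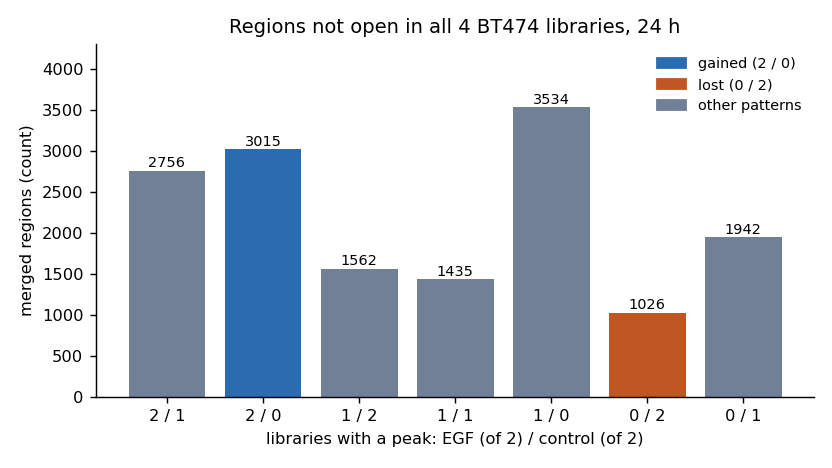
Number of merged regions (y axis) by the number of EGF and control libraries with a peak (x axis), for the regions that were not open in all 4 libraries. The 3015 gained regions (blue) outnumber the 1026 lost regions (orange) and the 1435 regions open in 1 library of each group.

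Depth could not be known from peak lists, which hold no read totals, and a region without a peak is one where none was called rather than one shown to be closed. Each list ends at a score of 200, where the score is the peak caller's own, the area of the significance signal over the peak. Strength was therefore compared as the rank percentile of a peak's score within its own list, with 100 at the top. The EGF lists held 55225 and 56363 peaks and the control lists 52331 and 50579, so all EGF values lay above all control values (55794 ± 805 against 51455 ± 1239, mean ± SD, n = 2 each, exact permutation p = 0.333, two-sided, the smallest this design can give). The covered length went the other way, 33.2 Mb in each EGF list against 34.0 and 33.6 Mb in the control lists, and the median peak was 458 and 444 bp wide in the EGF lists and 488 and 498 bp in the control lists. The base-pair overlap of 2 lists, as a share of their union, was 85.0% between the EGF replicates, 85.5% between the control replicates and 79.4% to 80.7% between EGF and control libraries. The promoters of all 9 luminal markers examined, which include KRT8, KRT18, GATA3, FOXA1 and ERBB2, were open in all 4 libraries, and that of ERBB2 ranked at 100 in each. None of the 4 blood cell markers, PTPRC, CD3E and SPI1 among them, had a promoter peak in any library. Of 2 endothelial markers, PECAM1 had no peak and CDH5 had one in all 4 libraries. Among basal markers, TP63 was open in all 4 libraries, KRT14 had no peak, and KRT5 had one in both EGF libraries alone, at percentiles 1.70 and 7.14. Mesenchymal VIM, ZEB1 and COL1A1 promoters were open in all 4 libraries, PDGFRB in 3 and ZEB2 in none. COL1A1 ranked at 99.4 to 99.6, VIM at 86.3 to 91.4 and ZEB1 at 56.1 to 76.3. Luminal ranks ran from 61.9 (ESR1) to 100 (ERBB2), so the ranges overlapped. The part of other cell types in the results was not tested. In bulk chromatin, a site open in fewer cells and a site less open in each cell cannot be told apart.

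Gained regions were weak, narrow and far from promoters. Their median percentile was 13.8 and 14.7 in the EGF libraries, their median width was 299 bp against 489 bp for all regions, and 13.2% of them lay within 1 kb of an annotated transcript start (promoter) against 35.2% of all regions. Their summits fell in introns in 52.0% of cases and between genes in 31.3%, against 38.0% and 23.6% of all regions. The median distance to the nearest protein-coding gene start was 20.7 kb for gained regions and 8.48 kb for all. Lost regions were as weak, with median percentiles of 11.4 and 11.7 in the control libraries, but 27.9% of them were promoters and their median distance was 14.0 kb. The median GC content around the summit was 49.8% for gained, 43.3% for lost and 53.2% for all regions, and the part of base composition in these results was not tested. The median of the lower of the 2 EGF scores was 244 in gained regions, and in the 2756 regions open in both EGF libraries and 1 control library the median score of that control peak was 237, so both sides of the presence rule sit close to the score of 200 where the lists end. Only 23 gained and 3 lost regions passed the 50th percentile in both open libraries, and none passed the 75th. Gained regions made up 2.91% of the regions of chromosome 19, the lowest share, and 5.96% of those of chromosome 21, the highest.

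AP-1 motifs marked the gained regions. A match to TGANTCA lay within 100 bp of the summit in 40.6% of gained regions, 4.78% of lost regions and 14.8% of all regions. The contrast was also present outside promoters, where the shares were 41.1%, 5.14% and 18.95%. With the gained regions divided into 4 groups of like size by their lower EGF percentile, the share was 32.5% in the weakest group, then 32.0% and 42.2%, and 55.7% in the strongest. The lost regions had a different make-up. AGATAA, the motif of GATA factors such as the luminal regulator GATA3, was found in 16.5% of lost regions, 7.86% of gained and 8.19% of all, and outside promoters in 20.5%, 8.18% and 10.7%. ACATTCC, read by TEAD factors, was in 6.92% of lost, 4.05% of gained and 4.30% of all regions. AACCNGTT, read by Grainyhead-like factors, was in 5.75% of lost, 2.52% of gained and 3.85% of all. TGTTTAC, the forkhead motif read by FOXA1, was in 10.7% of lost, 9.29% of gained and 8.09% of all. Outside promoters it was in 12.973% of lost, 9.51% of gained and 10.46% of all. The excess of the forkhead motif in gained over all regions was therefore absent outside promoters.

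The motif of CTCF, which anchors chromatin loops, was rarer in the gained regions, at 1.13% against 2.34% of lost and 3.54% of all regions, and outside promoters at 1.07%, 2.70% and 4.17%. TGTGGTT, read by RUNX factors, was in 5.94% of gained, 4.09% of lost and 4.05% of all regions, and TTCNNNGAA, read by STAT factors, in 6.401%, 5.17% and 5.19%. The shares outside promoters were 5.85%, 5% and 4.82% for TGTGGTT and 6.50%, 5.41% and 5.98% for TTCNNNGAA. Both differences between gained and all regions were smaller there. The promoter motif GGGGCGGGG of SP and KLF factors was in 0.630% of gained, 4.39% of lost and 5.70% of all regions. Outside promoters the shares were 0.306%, 0.811% and 1.033%. CCGGAA of ETS factors was in 3.35%, 4.48% and 7.79%. Outside promoters it was in 3.095%, 2.973% and 3.431%, so most of the ETS difference between gained and all regions was absent there. TGACGTCA, CACGTG, GCCNNNGGC and the motifs of the estrogen receptor, NF-kB and the hypoxia factors were also searched on both strands. They were found in no more of the gained regions than of all regions. Outside promoters the same held for all of them but TGACGTCA, which was in 0.382% of gained and 0.259% of all regions. A match says that the letters are in the window, not that a factor is bound there, and motifs can overlap each other.

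**Figure D2:**
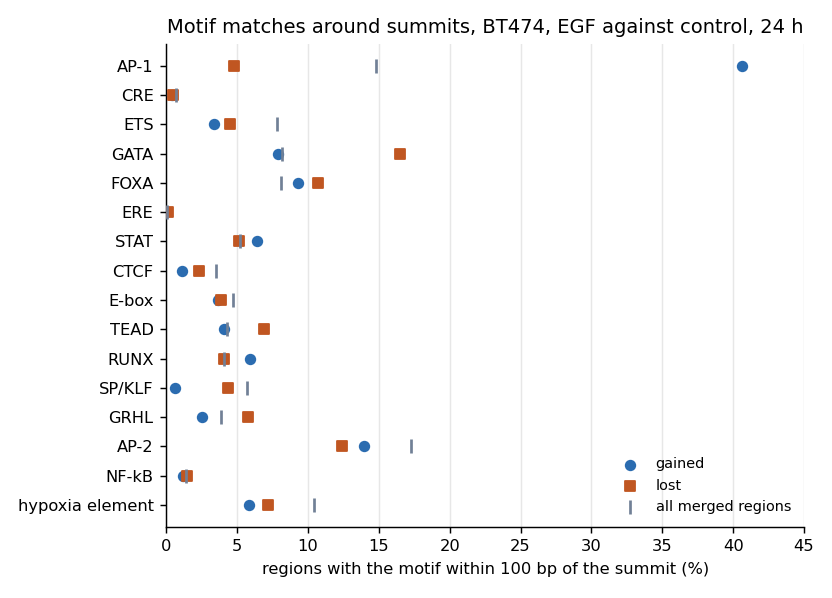
Share of regions with each of 16 motifs within 100 bp of the summit (x axis, %), for gained (blue circles), lost (orange squares) and all merged regions (grey ticks). AP-1 stands at 40.6% of gained against 4.78% of lost regions, and GATA at 16.5% of lost against 7.86% of gained.

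The strongest gained region lay on chromosome 8 in intergenic sequence, 313 kb upstream of the nearest start of DUSP4, a nuclear phosphatase of MAP kinases. It ranked at 68.6 and 69.7 in the EGF libraries and had no peak in either control library of 24 h, but it had a peak in both baseline libraries and in 15 of the other 16 BT474 libraries. The second, in an intron of DAP (ENSG00000112977), ranked at 61.3 and 61.6. It was also open in both baseline libraries, in 0 of 2 control libraries of 12 h and in every EGF and HRG library of BT474. The third, chrX:150200814-150201346, 160 kb upstream of MAMLD1, ranked at 59.7 and 65.6. The fourth, chr11:120124968-120125410, lay 168 bp downstream of a start of TRIM29, a gene known from stratified epithelia, and ranked at 59.0 and 59.2. Unlike the first 3 it had no baseline peak, and it was open in both EGF libraries of 1 h and of 12 h.

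The region chr5:174082148-174082652, 8.55 kb upstream of NSG2, ranked at 60.2 and 57.1, and chr20:50440624-50441169, 69.2 kb upstream of PTPN1, a phosphatase that acts on receptor tyrosine kinases, ranked at 65.8 and 55.9. Neither had a peak in any of the 6 baseline and earlier control libraries, while both were open in both EGF libraries of 12 h and in all HRG libraries of BT474. The other 4 of the 10 strongest, nearest to TBL1XR1, MICAL2, RDH10 and RAB3GAP2, ranked between 54.2 and 61.0. All 10 were open in both EGF libraries of 12 h and both HRG libraries of 24 h, and 6 of the 10 had an AP-1 match. They were chosen for their rank, so only these other libraries and motifs carry information beyond the choice.

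The strongest lost region was chr6:120141621-120142576, intergenic and 792 kb from the nearest start, that of MAN1A1. It ranked at 76.8 and 72.5 in the control libraries, was open in both baseline and both EGF libraries of 12 h, and had no peak in any HRG library of 12 or 24 h. The second, chr12:52059527-52060945, lay 2.84 kb downstream of a start of NR4A1, an immediate early nuclear receptor, and within 1 kb of another annotated transcript start. It ranked at 66.6 and 64.8, was open in both EGF libraries of 1 h and had no peak in the EGF libraries of 12 h or the HRG libraries of 12 and 24 h. The region chr5:37254572-37255272 near CPLANE1 ranked at 58.9 and 64.3 and was absent from both HRG libraries of 24 h. Among the rest, 6 regions nearest to SALL3, MTO1, IQSEC3, C18orf54, NFE2L3 and KCNK1, ranked between 43.3 and 54.4, and 1 of the 10 had an AP-1 match.

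The libraries that did not define the regions were then examined, first over time. Of the gained regions, 56.9% and 77.0% had a peak in the EGF libraries of 12 h and 12.4% and 13.6% in the control libraries of 12 h. At 1 h the shares were 45.9% and 38.5% with EGF and 20.6% and 21.4% in the controls, and at baseline 21.9% and 13.7%. The EGF and control values did not overlap at either time. Each of these 10 libraries had a peak in 77.1% to 88.5% of all regions. The EGF lists of 12 h held 52135 and 56846 peaks and the control lists of 12 h 49386 and 49767, and the part of this in the shares was not tested. Counted by the rule of 24 h, 1106 gained regions (36.7%) were also open in 2 of 2 EGF and 0 of 2 control libraries of 12 h, against 4.18% of all regions, and 53.3% of these 1106 had an AP-1 match. At 1 h, 466 gained regions (15.5%) followed the rule against 2.18% of all regions, and 65.9% of them had an AP-1 match. A total of 1681 gained regions (55.8%) had no peak in any of the 6 baseline and earlier control libraries, and 299 (9.92%) were open in both baseline libraries.

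Gained regions were compared with the other ligand. HRG libraries of 24 h had a peak in 74.6% and 71.6% of the gained regions, and 1835 (60.9%) were open in both, against 61 (5.95%) of the lost regions. Both shares lay below those of all regions, of which 84.6% and 83.4% had a peak in these libraries and 78.4% in both. At 12 h the HRG shares of gained regions were 72.0% and 71.6%, and at 1 h 36.5% and 42.0%. Of the lost regions, 22.9% and 22.5% were open in the HRG libraries of 24 h, 40.1% and 51.9% in the EGF libraries of 12 h and 54.1% and 51.1% in the control libraries of 12 h. Of the lost regions, 59 (5.75%) were lost by the same rule at 12 h against 0.410% of all regions. In the resistant BT474R line, 65.8% and 65.1% of the gained regions had a peak after EGF for 24 h and 29.3% and 38.7% in control libraries of that time. Over all regions the shares were 72.0% and 70.7% after EGF and 62.5% and 67.1% in the controls, so the gained regions were open less often than all regions in both groups, with a wider gap between the groups. By the 24 h rule 736 of them (24.4%) were gained in BT474R too, against 4.93% of all regions. Among all conditions of that line, 383 gained regions (12.7%) were open in all 20 BT474R libraries, against 46.5% of all regions, and 667 (22.1%) in none of them, against 15.4%.

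**Figure D3:**
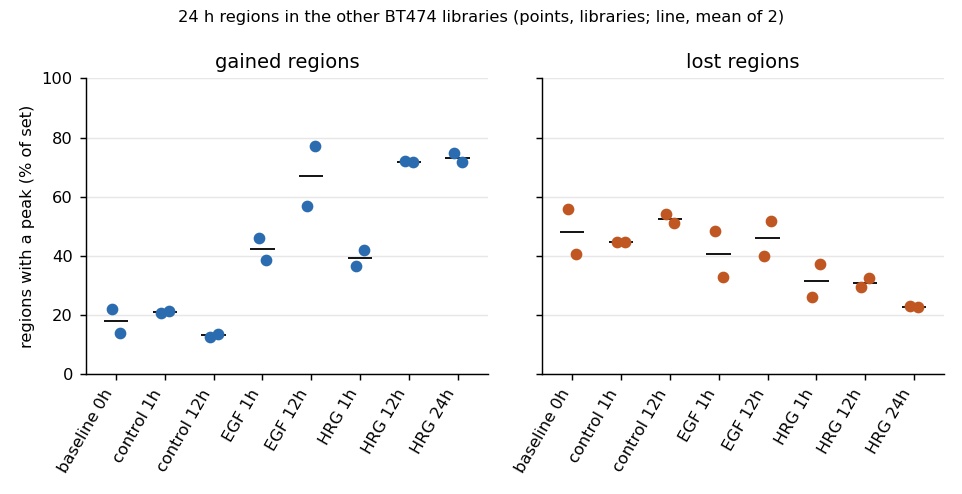
Share of the gained (left) and lost (right) regions that had a peak (y axis, %) in each of the other 16 BT474 libraries, by treatment and time (x axis); points are libraries and lines are means of 2. Gained regions were open at 56.9% and 77.0% in EGF 12 h libraries and at 12.4% and 13.6% in control 12 h libraries.

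Regions open in all 4 libraries could differ in rank. They were tested with limma on the percentiles, with Benjamini-Hochberg adjustment over the 44958 regions. At an adjusted p under 0.05, 4079 regions (9.07%) ranked higher in EGF-BT474 and 1013 (2.25%) ranked lower, and 13922 had an unadjusted p under 0.05. The median of all differences was 1.56 percentile points in favour of EGF. Ranked among the shared regions alone, where the median difference was -0.09, 2479 were higher and 1552 lower, so the share of higher among the called regions was 61.5% in place of 80.1%. Over all shared regions the SD of the difference between replicates was 6.88 points for EGF and 6.54 for control, and that of the difference between group means was 9.38. Without control replicate 2 the counts were 459 higher and 125 lower, and without EGF replicate 1 they were 770 and 649.

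The shared regions moved by where they lay and which motif they held. In the 18265 promoters the median difference was -0.06 points, with 763 higher and 716 lower. In the 26693 other regions it was 3.98 points, with 3316 higher and 297 lower. In the 4660 of these with an AP-1 match it was 8.61 points, with 1335 (28.6%) higher and 19 (0.408%) lower, and in the 22033 without one it was 3.28 points, with 1981 (8.99%) higher and 278 (1.26%) lower. Ranked among shared regions alone the medians were 6.41 points with and 0.84 points without an AP-1 match, and -1.40 points in promoters, where 453 were then higher and 1100 lower, so the near balance of higher and lower promoters depends on the scaling. The 1624 shared regions with a CTCF motif held 22 higher and 5 lower regions. Of the 4079 regions that ranked higher, 39.2% had an AP-1 match and 18.7% were promoters. Of the 1013 that ranked lower, 4.15% had an AP-1 match and 70.7% were promoters. Their median GC content was 66.2% against 52.7% for those that ranked higher and 55.2% for all shared regions, and the part of GC content was not tested. Outside promoters, 17.8% of the regions that ranked lower held the GATA motif, against 10.3% of all such shared regions.

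**Figure D4:**
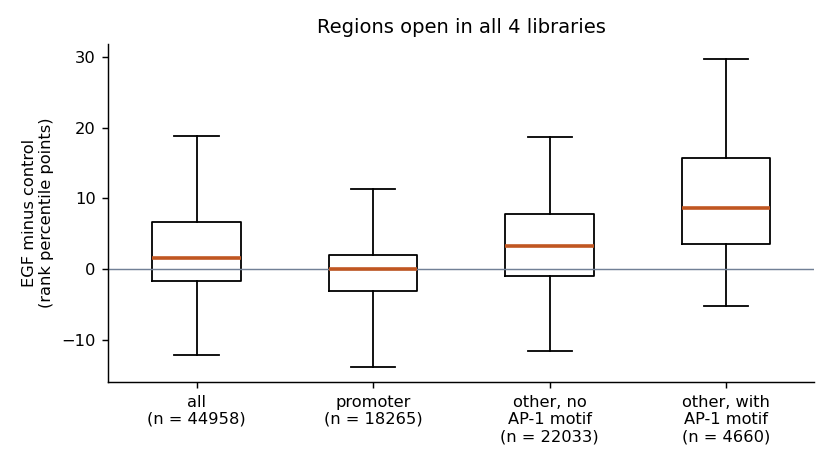
EGF minus control difference of the mean rank percentile (y axis, points) for regions open in all 4 libraries, by position and AP-1 match (x axis); boxes give quartiles and median, whiskers the 5th and 95th percentiles. The median is -0.06 in promoters, 3.28 in other regions without an AP-1 match and 8.61 in those with one.

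The 10 largest increases were between 50.3 and 63.9 points. The first was chr3:64551546-64552438, in an intron of ADAMTS9, a secreted metalloproteinase, which ranked at 67.4 and 64.1 in the EGF libraries and at 1.36 and 2.40 in the controls (difference 63.9 ± 3.74 points, SE, adjusted p = 0.00798). The second lay 44.6 kb upstream of BZW1, at chr2:200765212-200765951, with 63.0 and 70.7 against 6.57 and 0.55 (63.3 ± 4.67, adjusted p = 0.011). The third lay at chr12:7584163-7584527, 80.3 kb upstream of CD163, with 57.4 and 63.5 against 1.61 and 0.37 (59.5 ± 4.19, adjusted p = 0.0103). In all 3 the EGF values stood far above both control values, which follows from their choice as the largest increases. The region at chr3:158746811-158747382, 195 bp upstream of a start of MFSD1, rose from 5.34 and 8.28 to 64.7 and 59.8 (adjusted p = 0.0106). The other 6, nearest to PTGER4, RHOH, RGS7, UBE3D, RPL39L and HAP1, rose by 50.3 to 54.1 points with adjusted p between 0.0124 and 0.0237. Of the 10, 6 held an AP-1 match.

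The 10 largest decreases were between 44.9 and 56.2 points. The largest was at chr12:52953041-52955467, 1.30 kb downstream of a start of KRT18, a keratin of simple epithelia, which ranked at 19.3 and 17.4 in the EGF libraries and at 76.1 and 73.0 in the controls (adjusted p = 0.00798). The region at a start of CHST15, a sulfotransferase, ranked at 10.8 and 13.9 against 68.1 and 63.2 (adjusted p = 0.0106). The region at a start of STK11, the kinase LKB1, ranked at 1.12 and 0.76 against 51.5 and 46.1 (adjusted p = 0.0129). A region 2.56 kb upstream of a start of GATA3, chr10:8049391-8051047, ranked at 14.5 and 29.3 against 71.2 and 66.2 (adjusted p = 0.0179), and a second GATA3 region, chr10:8061182-8062224, named after its values were seen, at 14.0 and 28.3 against 61.0 and 60.1 (adjusted p = 0.0218). The remaining 6 lay nearest to ADCY2, DIPK2A, SKOR1, SLC35F1, AMELX and TMEM267. None of the 10 held an AP-1 match.

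Genes were described through lists drawn up for the pathway and the tissue. Each region went to the protein-coding gene with the closest start, at most 100 kb away, and 15448 genes had at least 1 region. Of these, 2029 (13.1%) had a gained region, 803 (5.2%) a lost region, 2369 (15.3%) a shared region that ranked higher and 918 (5.94%) one that ranked lower. For each gene the strongest shared region within 1 kb of its starts stood for its promoter, and of 13317 such promoters 252 (1.89%) ranked higher and 611 (4.59%) lower, with a median difference of -0.26 points. Promoter counts and values of the lists below refer to this strongest region, and weaker regions over other starts of the same gene could differ. Those named were chosen after their values were seen. A gene with more regions has more chances of each, and the median was 2 regions per gene over all genes and between 1 and 9 in the lists.

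The ERBB receptors and their ligands had a median of 4 regions per gene, against 2 over all genes. Of 13 genes, 4 (30.8%, against 13.1% of all genes) had a gained region and 1 (7.69%, against 5.2%) a lost one. These were EGFR itself, ERBB3, and the EGFR ligands TGFA and AREG, while the promoter of the ligand EPGN was lost, with percentiles 11.4 and 22.99 in the control libraries. A gained region in an EGFR intron, chr7:55129719-55130250, ranked at 10.4 and 8.87, had an AP-1 match and had no peak in any of the other 16 BT474 libraries, though it was open in all 20 BT474R libraries. A second one, chr7:55132857-55133199, ranked at 0.91 and 20.4 and was open in 4 of the other 16 BT474 libraries and in all 20 BT474R libraries. The 4 BT474 libraries were all HRG libraries, of 12 and 24 h. The EGFR promoter ranked lower, at 89.4 and 89.3 after EGF against 95.1 and 93.9 (difference -5.10 ± 0.54 points, SE, adjusted p = 0.0144). It was the single promoter of 11 on this list past the threshold, where 4.59% of all promoters ranked lower. A weaker region over another start of ERBB4 did differ, by -32.8 points (adjusted p = 0.0141).

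The Ras, MAP kinase and PI3K relay had 4 of 30 promoters past the threshold, all lower, where 4.59% of all promoters ranked lower. SOS1, the exchange factor that loads Ras with GTP, ranked at 77.7 and 76.3 against 91.7 and 87.9 (adjusted p = 0.0162). NRAS ranked at 32.0 and 38.5 against 57.6 and 51.6 (adjusted p = 0.0495). NRAS no longer passed with a replicate block (adjusted p = 0.0566). Weaker start regions of GAB2 and RPS6KA1 differed by -18.0 and -11.9 points (adjusted p = 0.0445 and 0.0339). Gained regions were assigned to GAB1, MAPK3, RPS6KA1, PIK3CB and RPTOR, 5 of 30 genes (16.7%, against 13.1% of all genes). Lost ones were assigned to GAB2, AKT1 and PIK3CB (10%, against 5.2%). The list had a median of 3 regions per gene, against 2 over all genes.

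The feedback inhibitors had lower promoters and gained regions. Of 22 promoters 6 ranked lower and none higher, with a median difference of -3.34 points, where 4.59% of all promoters ranked lower. SPRY1 ranked at 80.5 and 81.7 after EGF against 94.96 and 92.2 in the controls (-12.5 ± 1.11 points, adjusted p = 0.0128). SPRY2 ranked at 82.3 and 83.5 against 94.2 and 92.2 (-10.3 ± 0.90, adjusted p = 0.0128). SOCS2, a suppressor of cytokine signaling, had the largest fall, to 53.1 and 65.5 from 91.7 and 93.5 (-33.3 ± 4.14, adjusted p = 0.0179). DUSP1, ERRFI1 and SOCS3 differed by -5.37, -11.1 and -5.57 points (adjusted p = 0.0354, 0.0396 and 0.0357). A weaker start region of ERF differed by -42.7 points (adjusted p = 0.014). In each of the 6 genes both EGF values lay below both control values, which passing the test favours. The same held in 8371 of the 44958 shared regions. In addition, 6 of the 22 genes (27.3%, against 13.1% of all genes) had a gained region, 11 regions in all. The list had a median of 5 regions per gene, against 2 over all genes. DUSP6 had 4 of its 9 regions gained, SPRED2 3 of 26, and DUSP1, DUSP4, DUSP5 and ERRFI1 1 each, while DUSP1 also lost 1. Of all regions 5.01% were gained. The strongest by the lower percentile was chr1:8004779-8005112 at ERRFI1, at 20.9 and 23.3, which has an AP-1 match. It was open in both EGF libraries of 12 h and in no baseline or 12 h control library. The same held for chr12:89346187-89346680 near DUSP6, the phosphatase of cytoplasmic ERK, at 15.8 and 32.5. Of the 26 SPRED2 regions, 5 were shared and ranked higher, by 3.29 to 18.3 points, where 9.07% of all shared regions ranked higher.

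The AP-1 and immediate early genes also had lower promoters. All 20 had an open promoter, and 6 ranked lower and none higher, with a median difference of -2.33 points. Of all promoters, 4.59% ranked lower. FOS ranked at 82.8 and 81.0 after EGF against 97.0 and 95.9 (-14.5 ± 0.82 points, adjusted p = 0.00798), FOSB at 84.4 and 87.6 against 93.8 in both controls (adjusted p = 0.0212), and JUNB at 94.9 in both against 99.7 and 99.6 (adjusted p = 0.00798). FOSL2, MYC and MCL1 differed by -4.68, -2.51 and -1.47 points (adjusted p = 0.0132, 0.014 and 0.0286). Of the 20 genes, 8 (40%) had a shared region that ranked higher and 9 (45%) one that ranked lower, with a median of 6 regions per gene. Over all genes the shares were 15.3% and 5.94%, with a median of 2 regions. Gained regions were assigned to 3 of the 20 genes (15%, against 13.1% of all genes), IER3, KLF6 and MYC. IER3, an early response gene, had 3 of them among its 8 regions. Of these 3, chr6:30769580-30769879 ranked at 28.1 and 31.4, had an AP-1 match and had no peak in the 6 baseline and earlier control libraries. Lost regions were assigned to 2 of the 20 genes (10%, against 5.2%). They lay at NR4A1 and at a start of FOSB (48.8 and 6.78 in the controls).

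**Figure D5:**
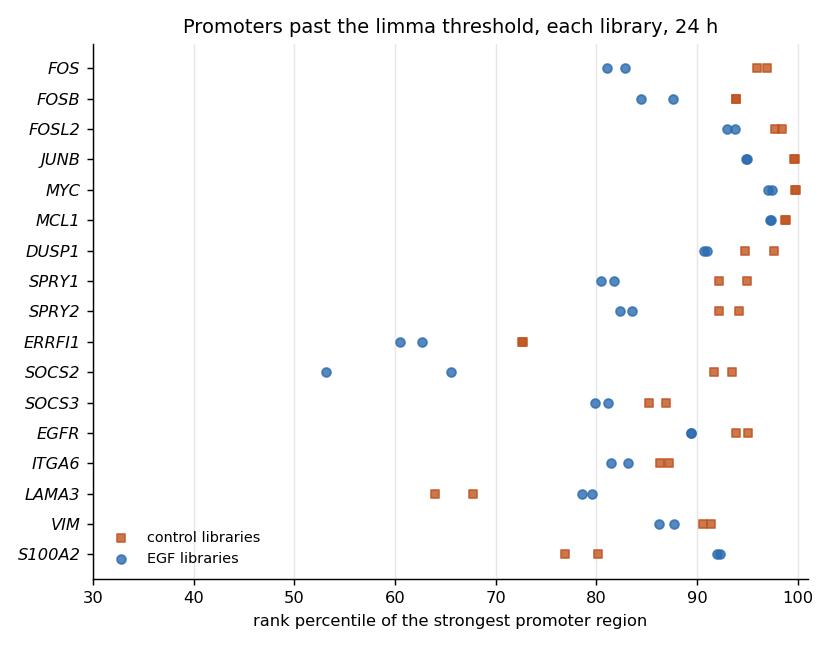
Rank percentile (x axis) of the strongest promoter region in each library for the genes of the ERBB, feedback, immediate early and wound and matrix lists (y axis) whose promoter passed the limma threshold; blue circles are EGF and orange squares control libraries. LAMA3 and S100A2 are higher after EGF and the other genes lower. The groups do not overlap for any gene, which the choice by this test favours.

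The wound, invasion and matrix genes had the largest share of genes with a gained region among the 10 lists, 12 of 29 (41.4%). The share was 13.1% over all genes, and the list had a median of 4 regions per gene against 2. Of the 29 genes, 2 (6.90%, against 5.2%) had a lost region. ITGB6, the beta chain of an integrin that activates TGF-beta, stood out, although it was singled out after its values were seen. A gained region at chr2:160208125-160208456 ranked at 52.9 and 53.2, and 9 of its 14 regions were shared and ranked higher, by 5.48 to 47.3 points with a median of 15.3. One of them, chr2:160175450-160176100, ranked at 73.6 and 72.8 after EGF against 48.6 and 46.2 (adjusted p = 0.014), while the ITGB6 promoter did not pass the test (45.1 and 19.4 against 7.999 and 31.2, adjusted p = 0.504). The gained region was open at baseline too, in both libraries. Its sequence is shown as that of a gained region inside a group of regions that rose, with the AP-1 match in capitals, in the same form as above.
ITGB6, chr2:160208207-160208407: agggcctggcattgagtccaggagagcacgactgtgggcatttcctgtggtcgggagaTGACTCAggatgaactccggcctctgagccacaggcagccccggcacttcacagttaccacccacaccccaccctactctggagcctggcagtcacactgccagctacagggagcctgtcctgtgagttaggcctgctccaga
ITGA6 and SMAD3 had gained regions at 31.5 and 44.97 and at 31.5 and 47.2. The promoters of the collagenases MMP1 and MMP13 were gained, both with an AP-1 match, but at 0.24 and 12.3 and at 10.9 and 0.67 they were near the end of the lists. LAMA3, a laminin chain of the basement membrane, rose to 78.5 and 79.6 from 67.7 and 64.0 (13.2 ± 2.02 points, adjusted p = 0.0249), and S100A2 to 92.0 and 92.2 from 80.2 and 76.9 (13.6 ± 1.24, adjusted p = 0.013). The promoters of VIM, an intermediate filament of mesenchymal cells, and ITGA6 differed by -4.02 and -4.53 points (adjusted p = 0.0331 and 0.0457), and that of ITGA6 no longer passed with a replicate block (adjusted p = 0.052).

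Luminal genes had regions of both kinds, 8 of 22 (36.4%) with a gained and 4 (18.2%) with a lost region. Over all genes the shares were 13.1% and 5.2%, with a median of 2 regions per gene against 9 here. Gained regions lay near GRHL2, SPDEF, KRT19, KRT8, KRT18, TRPS1, TFAP2C and FOXA1, and lost ones near TFAP2A, ELF5, MUC1 and PRLR. The strongest promoter regions of TFF3 and KRT8 ranked higher by 4.75 and 1.29 points (adjusted p = 0.0165 and 0.0346). At KRT8 the direction depended on the start, since regions over 2 other starts, chr12:52901328-52902665 and chr12:52903261-52905833, differed by -23.9 and -7.05 points (adjusted p = 0.0369 and 0.00798). A weaker start region of PRLR ranked higher by 7.88 points (adjusted p = 0.0128), and the promoter of XBP1 fell by 5.25 points (adjusted p = 0.0133). ELF3, an epithelial ETS factor, had 9 regions, of which 6 were shared and ranked higher, by 1.70 to 9.29 points. Among the glycolysis and hypoxia genes 2 of 21 (9.52%, against 13.1% of all genes) had a gained region. A shared region that ranked higher was found in 11 of 21 (52.4%), against 15.3% of all genes. The list had a median of 5 regions per gene. These 11 genes included SLC2A1, the glucose transporter, with 3 such regions of 14, and HK1 with 4 of 17. HK2, VEGFA and PDK4 had 2 each, of 9, 15 and 5. Of all shared regions 9.07% ranked higher. The LDHA region, chr11:18383389-18384853, rose to 97.1 and 97.5 from 91.0 and 91.0 (adjusted p = 0.00798). Of 22 promoters in the list 0 ranked higher and 1 lower (HK2, 78.1 and 80.2 against 88.6 and 86.9, adjusted p = 0.0201), with a median difference of 0.02 points. Of all promoters, 1.89% ranked higher and 4.59% lower. Weaker start regions did rise at ENO1, to 66.9 and 64.8 from 32.6 and 29.1 (adjusted p = 0.0133), and at HK1, by 7.95 points (adjusted p = 0.0186), and that of PFKFB3 differed by -13.7 points (adjusted p = 0.0298).

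The remaining lists, of cell cycle, sterol and interferon response genes, had 2, 3 and 1 promoters past the threshold, of 26, 13 and 18. Of all promoters, 1.89% ranked higher and 4.59% lower. Of 26 cell cycle promoters MCM6 and MCM7, parts of the replicative helicase, ranked lower, with differences of -19.1 and -4.03 points (adjusted p = 0.0179 and 0.0124). A gained region was assigned to 2 of 25 genes, CCNE2 and CDKN1A (8%, against 13.1% of all genes). Of 13 sterol and fatty acid synthesis promoters SREBF1, SREBF2 and INSIG1 differed by -9.74, -2.77 and -0.98 points (adjusted p = 0.0179, 0.0227 and 0.0493). That of INSIG1 no longer passed with a replicate block (adjusted p = 0.0781). On this list 4 of 13 genes had a gained region (30.8%, against 13.1%), with a median of 5 regions per gene against 2 over all genes. Over all lists 31 promoters passed the threshold, and 31 of 31 kept their direction under both other scalings. They were chosen by the test in the same libraries, so this is not independent evidence.

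Of the 2029 genes with a gained region, 71 had 3 or more and 5 had 5 or more. ACSL3, which activates long-chain fatty acids, had 6 of its 17 regions gained. ABTB2, the RNA-binding MSI2 and SND1 had 5 each, of 12, 30 and 13 regions. ABCC3, AUTS2, BCAS1, CDYL and CPNE4 had 4 each, of 19, 50, 28, 15 and 14. The strongest at ACSL3, chr2:222842512-222843173, ranked at 49.7 and 46.6, had an AP-1 match and was open in all of the other 16 BT474 libraries. The strongest at ABTB2, chr11:34344836-34345706, ranked at 50.7 and 47.8. Among genes with lost regions, GFOD1 had 3 and ADAMTS16, ARHGAP6, AUTS2 and CALCOCO1 had 2 each.

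Whether the EGF effect on shared regions had the same size at 12 and 24 h was asked of 42175 regions open in all 8 libraries of these times, in 1 limma fit added after the data were seen. The regions that ranked higher at 24 h had a median EGF effect of 8.87 points at 12 h, in libraries of their own, and 3864 of 3925 (98.4%) were above 0, against 65.7% of all regions. Those that ranked lower had a median effect at 12 h of -1.68 points, and 667 of 985 (67.7%) were below 0, against 34.3%. Both sets were chosen by the test at 24 h. Their medians at that time were 13.1 points for all that ranked higher and -15.4 for all that ranked lower. In the fit of both times, 962 regions ranked higher and 26 lower at 12 h, and 2425 and 437 at 24 h. The effect itself differed between the times in 35 regions (0.083%), and 2424 had an unadjusted p under 0.05.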

How the data were processed

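ATAC-seq peak lists of 4 BT474 libraries (EGF and control, 24 h) were compared, and the other 36 lists were used for presence. From the methods of the study, the authors trimmed reads with Trim Galore 0.6.6, mapped them to GRCh38.p13 with BBMap, removed mitochondrial reads and blacklisted regions and called peaks in each library with Genrich, with options not given in the sources used here. The value used is the peak score the authors deposited, an area under the curve of significance that depends on each library's depth. It was therefore used only as a rank inside each list. The study's own test was a count model on reads, which was not repeated. All peaks lay inside the bounds of the reference chromosomes.

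Groups came from the sample labels. Shared regions were tested with limma 3.58.1 (R 4.3.3), empirical Bayes with a mean trend, and Benjamini-Hochberg adjustment over all shared regions, and peaks per library by exact permutation. Genes and transcript starts of any type came from GENCODE release 44, and sequences from the same GRCh38 genome. Motifs were searched within 100 bp of the summit. Regions and ranks were computed in Python 3.11.15 with pandas 2.3.3, permutations with scipy 1.17.1, and sequence was read with pysam 0.24.0.

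The comparison, the gene lists and the motifs were chosen with earlier results of these data known. Named were the 10 gained and 10 lost regions with the highest lower percentile of the 2 open libraries, the 10 largest differences in each direction past the threshold, the 10 genes with most gained and 5 with most lost regions, and genes of the lists with a gained or lost region or a promoter past the threshold. Alternatives were a score of at least 400, equal numbers of top peaks, peaks trimmed to 400 bp, 50% coverage of a region, other scalings, a replicate block, a fit with the HRG libraries, each library left out, promoters within 3 kb, a 250 bp motif window and assignment within 10 kb. A fit over 12 and 24 h was added after seeing the data. Some genes and 1 sequence that these rules select are not reported here.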

Additional observations from a re-analysis of the deposited data

Results flagged for a closer look

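The EGF effect on rank differed between 24 h and 12 h, by the limma test of the difference itself, in 31 shared regions where EGF minus control was lower at 24 h and in 4 where it was greater. The largest was the region near KRT18 whose rank fell at 24 h: EGF minus control was -56.2 points at 24 h and 13.8 at 12 h, a difference of -70.0 ± 5.94 points (SE, adjusted p = 0.0126). A region at a start of BCL6, chr3:187745324-187745889, moved by -33.7 and 23.2 points (difference -56.9 ± 5.28, adjusted p = 0.0208). A region at a start of SH3BP2, chr4:2797781-2799090, was the largest in the other direction, with 32.8 and -14.1 points (difference 46.8 ± 4.97, adjusted p = 0.0319). Of the 31 regions 18 were promoters, and 12.9% had an AP-1 match.

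Sequences other than chromosomes 1 to 22 and X, which no comparison used, held 29 and 32 peaks in the EGF lists and 27 and 28 in the control lists.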

How the results depend on the processing

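A score of at least 400 gave 2078 gained and 777 lost regions, but only 147 of the 3015 gained and 33 of the 1026 lost regions were among them. With equal numbers of top peaks, 1760 were gained and 1958 lost, which include 1554 of the gained and 869 of the lost regions. Leaving out each library in turn gave 3888 to 5016 gained and 1653 to 2180 lost regions, since a rule over 3 libraries is easier to meet. The promoter share of gained regions was 15.6% at a score of 400, 24.3% with trimmed peaks and 26.2% within 3 kb, against 46.5% of all regions within 3 kb, and 13.1% to 14.2% without 1 library. The AP-1 share was 46.7% with equal peaks, 35.1% with trimmed peaks, 48.4% in a 250 bp window (22.1% of all regions) and 33.9% to 36.1% without 1 library. For shared regions, ranking among themselves gave 2479 higher and 1552 lower, quantile-normalized log2 scores 2029 lower, equal peaks 2229 and 1593, and 6 libraries of 24 h in 1 fit 340 lower. Without 1 library 459 to 1931 were higher and 125 to 748 lower, with fewer degrees of freedom. The replicate block gave 4370 higher and 1143 lower. The numbers do not pair the libraries by any label, and the replicate differences of the 2 groups correlated at 0.082. Peaks per library differed by 4339, by 3463 to 5215 without 1 library, and covered length reversed, by -0.583 Mb. Genes with a gained region numbered 989 within 10 kb and 1249 with equal peaks. The mean share of gained regions open in EGF 12 h libraries was 67.0% against 13.02% in control 12 h libraries. With equal peaks it was 82.9% against 17.8%, and at a score of 400, 99.6% against 86.0% (both chosen after seeing the data). The 12 h lists were used whole in each case, so at a score of 400 a weaker 12 h control peak counted as open. A 24 h control peak of that strength counted as absent, so the 86.0% does not compare the times at a like threshold. The 10 regions with the largest rise and the 10 with the largest fall reversed in 0 refits over these alternatives, passed the threshold in 167, did not pass in 18 and were not measured in 35. They were chosen for the largest differences in the same libraries, so the lack of a reversal is not independent evidence. Where no cause is named, the cause was not tested. The weak scores near 200, where the lists end, limit which regions can be called gained or lost.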
